A study of Mus musculus with 22 samples.

Results

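The Hox genes are the mouse genes whose symbol is Hox, a cluster letter and a paralog number. The counts table of 48440 genes held 39 such rows, and 38 of them are described here: 10 of the Hox A cluster, 10 of Hox B, 9 of Hox C and 9 of Hox D. They were measured by RNA sequencing in 22 mouse tumours of 6 groups. The rows were picked by symbol and not by a measured value, but with earlier results of these data known. In GRCm38 (mm10) the members of Hox A lie on the minus strand of chromosome 6 from 52162417 to 52260880. The others lie on the plus strand: Hox B on chromosome 11 from 96194316 to 96368256, Hox C on chromosome 15 from 102921103 to 103036852, and Hox D on chromosome 2 from 74668310 to 74765142.

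SS18-SSX is the fusion oncogene of synovial sarcoma, a soft-tissue cancer, and Snf5, the product of Smarcb1, belongs to the SWI/SNF complexes that remodel chromatin. A first group of 3 tumours had the genotype SS18-SSX+/- with Myf5 in the title (N381, N428, N460), and a second group of 3 had SS18-SSX+/- with no Cre stated (A, B, N2). A further 3 tumours were SNF5-/- with Myf5 in the title (N30, N31, N33), and 5 were SNF5-/- with TATCre (N1, N49, N43L, N43R, N51). The combined tumours carried SS18-SSX+/- together with Snf5-/-, 4 with Myf5Cre (N1, N2, N3, N4) and 4 with TATCre (N49, 78774, 78777, 78780). Myf5Cre is the recombinase driven by Myf5, a gene of muscle progenitors, and TATCre is a recombinase protein carrying a peptide that lets it enter cells. A tag such as N49 or N2 recurs in different groups and names a different library each time. All samples are labelled as mouse tumour of strain C57BL, with a different number after the slash on every sample. The labels give no body site, age or sex, so the site of a tumour and its group cannot be told apart. They do not state that samples of a group came from separate animals, so a p-value measures only the spread between these samples.

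Hox genes encode homeodomain transcription factors that give cells their address along the head-to-tail axis and along the limb. Within a cluster, genes are transcribed in the same direction and are switched on in their chromosomal order, from the anterior group (paralogs 1 to 3) through the central group (4 to 8) to the posterior group (9 to 13). Adult mesenchymal cells keep much of the Hox pattern of the body site they came from. Polycomb complexes hold silent clusters off, and trithorax proteins and SWI/SNF complexes act against them.

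Of the 38 genes, 22 had a promoter in the RefSeq table of GRCm38.p6, in 24 windows of 250 bases before the annotated start. Hoxd13 and its neighbour Hoxd12 are shown because they parted in the Snf5-null Myf5Cre tumours, and Hoxa2 because it was higher with the fusion under both recombinases. The windows run from 5′ to 3′ on the strand of the gene, and capitals mark CG dinucleotides. None of the 3 overlaps an annotated exon.
Hoxd13, chr2:74667975-74668224, plus strand: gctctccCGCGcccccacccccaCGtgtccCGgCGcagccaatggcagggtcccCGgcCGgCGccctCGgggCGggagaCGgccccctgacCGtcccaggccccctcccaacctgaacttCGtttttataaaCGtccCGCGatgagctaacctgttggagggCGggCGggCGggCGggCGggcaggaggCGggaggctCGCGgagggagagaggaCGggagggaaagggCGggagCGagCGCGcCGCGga
Hoxd12, chr2:74674763-74675012, plus strand: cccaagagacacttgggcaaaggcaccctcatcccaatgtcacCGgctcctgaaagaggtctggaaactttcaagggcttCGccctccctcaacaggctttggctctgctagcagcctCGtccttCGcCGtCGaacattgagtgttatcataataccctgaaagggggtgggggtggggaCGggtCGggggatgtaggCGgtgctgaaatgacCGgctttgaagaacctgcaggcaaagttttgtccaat
Hoxa2, chr6:52164832-52165081, minus strand: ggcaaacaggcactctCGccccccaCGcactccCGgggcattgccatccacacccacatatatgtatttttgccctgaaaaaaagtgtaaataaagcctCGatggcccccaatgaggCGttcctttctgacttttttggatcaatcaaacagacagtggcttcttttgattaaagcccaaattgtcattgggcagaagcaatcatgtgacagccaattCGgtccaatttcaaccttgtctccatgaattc
The Hoxd13 window held 31 CG dinucleotides, a number reached by 5.19% of all 32851 windows in the table. The Hoxd12 window held 10 (37.8% of windows had as many) and the Hoxa2 window 6 (50.4%). Over the 24 Hox windows the count ran from 2 to 35, for Hoxa13, with a median of 12.5 against 6 over all windows. A PBX-HOX motif, TGATNNAT on either strand, occurred in 4 of the 24 windows (16.7%) and in 7.68% of all windows, and the Hoxa2 window was among the 4. A HOX13 motif, CTCGTAAA on either strand, occurred in 1 of the 24, before Hoxb8, and in 0.11% of all windows. A match of letters is a description and shows no bound site.

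Total counts ran from 14834030 to 25177722 per library in 21 libraries, and the SS18-SSX library A had 8642648. Smarcb1, the targeted gene, was at 13.7 ± 4.38 CPM (counts scaled to library size; SD, n = 3) in Snf5-null Myf5Cre and 17.1 ± 5.63 (n = 5) in Snf5-null TATCre tumours. It was at 1.81 ± 0.740 and 3.24 ± 0.435 (n = 4 each) in the combined Myf5Cre and TATCre tumours, and at 61.3 ± 13.8 and 97.2 ± 13.4 (n = 3 each) in the SS18-SSX tumours with Myf5 and with no Cre stated. Macrophage and myeloid markers also differed between genotypes. The 10 markers, all with counts in every group, summed to 3587 to 6263 CPM in Snf5-null Myf5Cre and 1809 to 7143 in Snf5-null TATCre. Their sums were 82.0 to 245 CPM in combined Myf5Cre, 359 to 811 in combined TATCre and 93.3 to 578 over the SS18-SSX groups. The part of these cells in the Hox differences between genotypes was not tested. In bulk tissue, fewer cells of a type and less RNA per cell cannot be told apart. The SS18-SSX libraries carry other sample number series (11264 and 11361) than all libraries with Snf5 loss (13879), so number series and genotype cannot be told apart in comparisons with SS18-SSX tumours.

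Some libraries stood apart from their group in the Hox genes. They were SS18-SSX N381 (Hox C) and N460 (Hox D), Snf5-null TATCre N1 (Hoxa13) and N49 (Hox B), combined Myf5Cre N2 (Hox B) and combined TATCre 78774 (Hoxa9 to Hoxa11). The Snf5-null TATCre library N1 was also apart over all genes, with a mean correlation of 0.888 to its group against 0.937 to 0.945 for the other 4, and SS18-SSX N381 with 0.867 against 0.897 and 0.905 for N428 and N460.

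Hox levels are given as RPKM, counts divided by exon length in kilobases and by the scaled library total, which allows levels to be compared between genes. Summed over the 38 genes, the level ran from 15.8 RPKM in Snf5-null Myf5Cre N30 to 162 in SS18-SSX N381. The number of members at 1 RPKM or more ran from 4, in Snf5-null Myf5Cre N30 and N33, to 28, in Snf5-null TATCre N49. Hox A was close to 0 in the Snf5-null Myf5Cre tumours N30, N31 and N33, where its 10 members summed to 0.209, 0.167 and 0.164 RPKM. In the Snf5-null TATCre tumours the same sum was 14.8 to 32.6 RPKM, and in the combined Myf5Cre tumours it was 6.61, 9.93, 36.8 and 41.5.

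**Figure D1:**
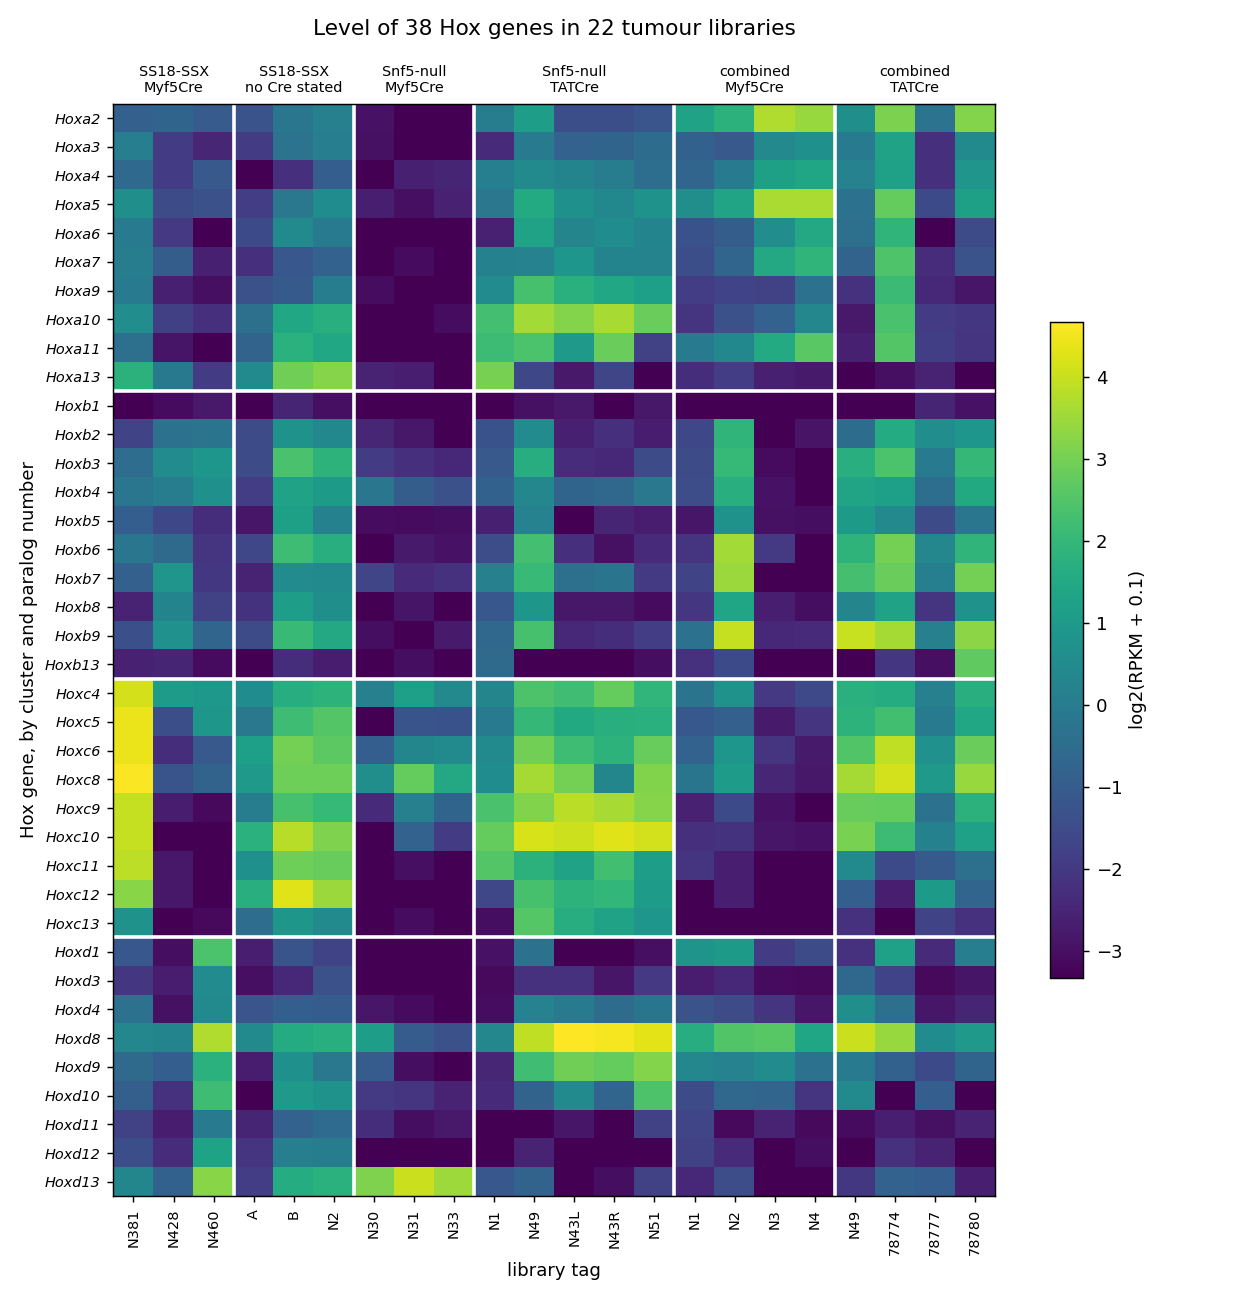
Level of each of the 38 Hox genes (rows, by cluster and paralog number) in each of the 22 libraries (columns, by group), as log2(RPKM + 0.1) on the colour scale. Hox A was dark in the 3 Snf5-null Myf5Cre libraries (sums of 0.164 to 0.209 RPKM), where Hoxd13 stood out at 8.55, 16.1 and 11.3 RPKM.

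Hox C was the most expressed cluster in each Snf5-null TATCre library, though in N1 barely above Hox A (22.41 against 22.36 RPKM). Among the SS18-SSX libraries it led in N381, A, B and N2, while Hox B led in N428 (8.20) and Hox D in N460 (41.1). Hox C also led in the combined TATCre libraries N49, 78774 and 78777, and Hox B led in 78780 (38.4 against 30.4). Hox C summed to 142 RPKM in SS18-SSX N381, and to 2.83 and 4.45 in N428 and N460 of the same group. In the Snf5-null TATCre libraries it summed to 22.4 in N1 and 55.4 to 70.0 in the other 4. Combined Myf5Cre tumours had the least Hox C, 0.485 to 6.24 RPKM, while the combined TATCre tumours had 9.59 to 50.9.

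**Figure D2:**
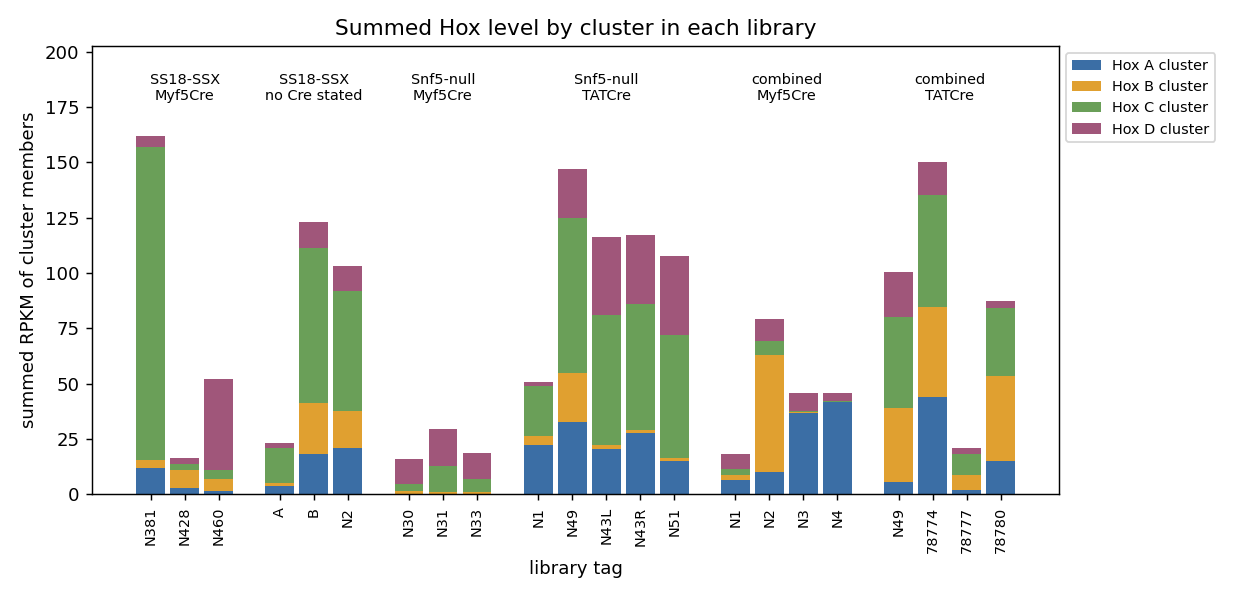
Summed RPKM of the members of each cluster (stacked bars, from 0) in each library, by group. Hox C made up most of the bar in SS18-SSX N381 (142 of 162 RPKM), and Hox B most of it in combined Myf5Cre N2 (53.2 of 79.1 RPKM).

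The shares of anterior, central and posterior genes also differed. Anterior genes made up 17.0% to 31.9% of the summed Hox level in the 4 combined Myf5Cre libraries and 0.471% to 1.90% in the 3 Snf5-null Myf5Cre libraries, without overlap. In the TATCre tumours the anterior share was 6.72% to 19.4% with the fusion and 0.867% to 5.62% without it, again without overlap. Hoxa2 alone was at 2.32, 3.39 and 13.1 of the 4.94, 13.4 and 14.6 RPKM of anterior genes in combined Myf5Cre N1, N2 and N3. Posterior genes made up 12.4% to 25.2% in combined Myf5Cre and 59.7% to 64.7% in Snf5-null Myf5Cre. In Snf5-null Myf5Cre N30, N31 and N33, Hoxd13 alone was at 8.55, 16.1 and 11.3 of the 9.42, 17.8 and 12.1 RPKM of posterior genes. Only 1, 2 and 1 of the 16 posterior genes reached 1 RPKM there, so the share was mostly that of Hoxd13. The posterior share was 26.3% to 35.1% in combined TATCre and 50.1% to 75.0% in Snf5-null TATCre.

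The members with the largest mean over all libraries, in which large groups weigh more, were Hoxa10, Hoxb9, Hoxc10 and Hoxd8. Library by library the leading gene varied: Hoxa10 led Hox A in 4 libraries, Hoxa2 in 8 and Hoxa13 in 7, and Hoxc8 led Hox C in 9 against 6 for Hoxc10. Hoxb9 led Hox B in 7 and Hoxd8 led Hox D in 17. Hoxa10, a posterior gene needed in the uterus and the upper hindlimb, was at 4.71, 11.7, 9.03, 12.2 and 7.00 RPKM in the Snf5-null TATCre libraries N1, N49, N43L, N43R and N51. In the SS18-SSX Myf5 libraries N381, N428 and N460 it was at 1.40, 0.186 and 0.112, and in A, B and N2 at 0.669, 2.69 and 3.17. No other group reached the lowest of the Snf5-null TATCre values, apart from combined TATCre 78774 at 5.03. Hoxb9, a posterior gene of the rib cage and spine, reached 15.3 RPKM in combined Myf5Cre N2 and 15.8, 11.9, 1.02 and 9.57 in the combined TATCre libraries N49, 78774, 78777 and 78780. It was at most 0.685 in the other combined Myf5Cre libraries. In the SS18-SSX libraries it was at 0.289, 1.54 and 0.514 RPKM in N381, N428 and N460, and at 0.255, 4.04 and 2.71 in A, B and N2. In the Snf5-null TATCre libraries N1, N49, N43L, N43R and N51 it was at 0.542, 4.92, 0.0856, 0.106 and 0.171. It was at most 0.0486 RPKM in the Snf5-null Myf5Cre libraries.

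Hoxc10, a posterior gene of the lower trunk and hindlimb, was at 6.73, 18.2, 16.4, 19.3 and 17.4 RPKM in the Snf5-null TATCre libraries N1, N49, N43L, N43R and N51. It was at 15.6, 0 and 0 in the SS18-SSX libraries N381, N428 and N460, so 1 library carried that whole group mean of 5.20. In A, B and N2 it was at 3.32, 13.9 and 8.61 RPKM, and in the combined TATCre libraries N49, 78774, 78777 and 78780 at 8.17, 4.36, 1.04 and 2.28. It was at most 0.469 in the Snf5-null Myf5Cre and 0.126 in the combined Myf5Cre libraries, so both Myf5Cre groups with Snf5 loss lay below all TATCre libraries. Hoxd8, a central gene, was present in every library, from 0.296 RPKM in Snf5-null Myf5Cre N33 to 25.2 in Snf5-null TATCre N43L. It was at 3.02, 5.48, 5.88 and 2.50 RPKM in the combined Myf5Cre libraries N1, N2, N3 and N4, and at 16.2, 10.6, 1.38 and 1.86 in the combined TATCre libraries N49, 78774, 78777 and 78780. In the SS18-SSX libraries N381, N428 and N460 it was at 1.19, 1.13 and 12.9, with N460 high, and in A, B and N2 it was between 1.27 and 3.16. Hoxb1, an anterior gene of the hindbrain, reached at most 3 counts in any library. Hoxb13, the last gene of its cluster and a tail and prostate gene, had 188 counts in combined TATCre 78780, 22 in Snf5-null TATCre N1 and at most 9 elsewhere. These 2 genes did not pass the filter on low counts, so 36 of the 38 were tested among 18929 genes.

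Adding SS18-SSX to Snf5 loss was first compared within the Myf5Cre tumours. Of the 36 Hox genes tested, 12 were higher and 1 was lower in the combined tumours (edgeR quasi-likelihood test, adjusted p below 0.05, as for all calls here). Over all genes tested, 15.7% were higher and 15.3% lower. Hox A accounted for 9 of the 12, Hoxa2 to Hoxa11, while Hoxa13 was not called (log2 fold change 1.11, SE 1.78). Hox B gave Hoxb6 and Hoxb9, Hox D gave Hoxd1, and none of the 9 Hox C genes was called. The gene that fell was Hoxd13. The median log2 fold change of the 36 genes was 3.69, or 3.01 with genes at 0 counts in a group set to their bound, against 0.23 over all genes. Scaling by relative log expression moved the median of all genes to 0.12 and changed no call of a Hox gene in any comparison.

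Hoxa2, which patterns the hindbrain and the second branchial arch, was at 2.32, 3.39, 13.1 and 10.8 RPKM in the combined Myf5Cre libraries N1, N2, N3 and N4, and at 0.0318, 0 and 0 in the Snf5-null Myf5Cre libraries N30, N31 and N33. The groups did not overlap, with 792 counts against 1, a pooled ratio of 658 with a 95% counting interval of 118 to 26040 (adjusted p = 0.000152). Hoxa5, a central gene needed for the lung and the neck vertebrae, was at 1.45, 2.44, 12.4 and 12.4 RPKM against 0.0602, 0.0265 and 0.0666 in the same libraries. It rose by 7.05 (SE 1.35, adjusted p = 0.000756) on the log2 scale, and again N3 and N4 were the high libraries.

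Hoxa7, a central gene, was at 0.279, 0.502, 2.73 and 3.60 RPKM in the combined tumours and at 0, 0.0173 and 0 in the Snf5-null tumours. Its pooled ratio was 259 (46.1 to 10245, adjusted p = 0.0023). Hoxa10 was far lower than these genes, at 0.131, 0.295, 0.475 and 1.20 RPKM against 0, 0 and 0.0191, a pooled ratio of 90.6 (15.9 to 3612, adjusted p = 0.0183). Hoxa11, a posterior gene of the forearm and kidney, was at 0.888, 1.24, 2.85 and 6.04 RPKM in the combined tumours and had no count in the 3 Snf5-null libraries. It was at least 110-fold higher (adjusted p = 0.0101, with the floor of 3 counts taken over the group). Hoxa11 shares 35.0% of its exon length with the antisense gene Hoxa11os, and whether the counting used strand is not stated, so the reads of the 2 genes may be mixed. The same holds for Hoxa7, which shares 20.4% with Hoxaas3, and for Hoxa3, which shares 25.4% with genes on the other strand. It also holds for Hoxa4, which shares 16.0% with Gm29430 on the other strand. Hoxa2 shares 15.0% and Hoxa3 8.0% of exon length with Gm28308 on the same strand, so counts over those parts are uncertain.

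Hoxb9 was at 0.685, 15.3, 0.0905 and 0.0942 RPKM in the combined Myf5Cre libraries N1, N2, N3 and N4, and at 0.0219, 0 and 0.0486 in the Snf5-null ones. N2 alone was high: without it the log2 change of Hoxb9 was 3.57 and that of Hoxb6 was 1.67, neither called (adjusted p up to 0.139 and 0.516). Hoxd1, the anterior end of its cluster, was at 1.64, 1.94, 0.167 and 0.260 RPKM against 0 counts in all 3 Snf5-null libraries, at least 35.7-fold higher (adjusted p = 0.0306). The calls of Hoxa2, Hoxa3, Hoxa4, Hoxa5, Hoxa7, Hoxa11 and Hoxd13 stayed when any single library of the 2 groups was left out. Those of Hoxa6, Hoxa9, Hoxa10 and Hoxd1 did not: each was lost without Snf5-null N30 or N31 among others (adjusted p up to 0.0723, 0.126, 0.0841 and 0.0961).

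Hoxd13, the posterior end of its cluster and the gene of the digits and the genital tubercle, went the other way. It was at 8.55, 16.1 and 11.3 RPKM (376, 801 and 448 counts) in the Snf5-null Myf5Cre libraries N30, N31 and N33, and at 0.0861, 0.267, 0 and 0 in the combined Myf5Cre libraries N1, N2, N3 and N4. It fell by 7.01 on the log2 scale (SE 1.48, adjusted p = 0.00174), without overlap. Hoxd12, next to it, had 0 counts in all 3 Snf5-null libraries and at most 0.190 RPKM in the combined ones, and was not called (adjusted p = 0.0907). Evx2, the homeobox gene on the far side of Hoxd13, had 42 counts in the 3 Snf5-null libraries and 1 in the 4 combined ones, a pooled ratio of 50.5 (8.58 to 2042, adjusted p = 0.00321), so it went with Hoxd13 and not with Hoxd12.

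**Figure D3:**
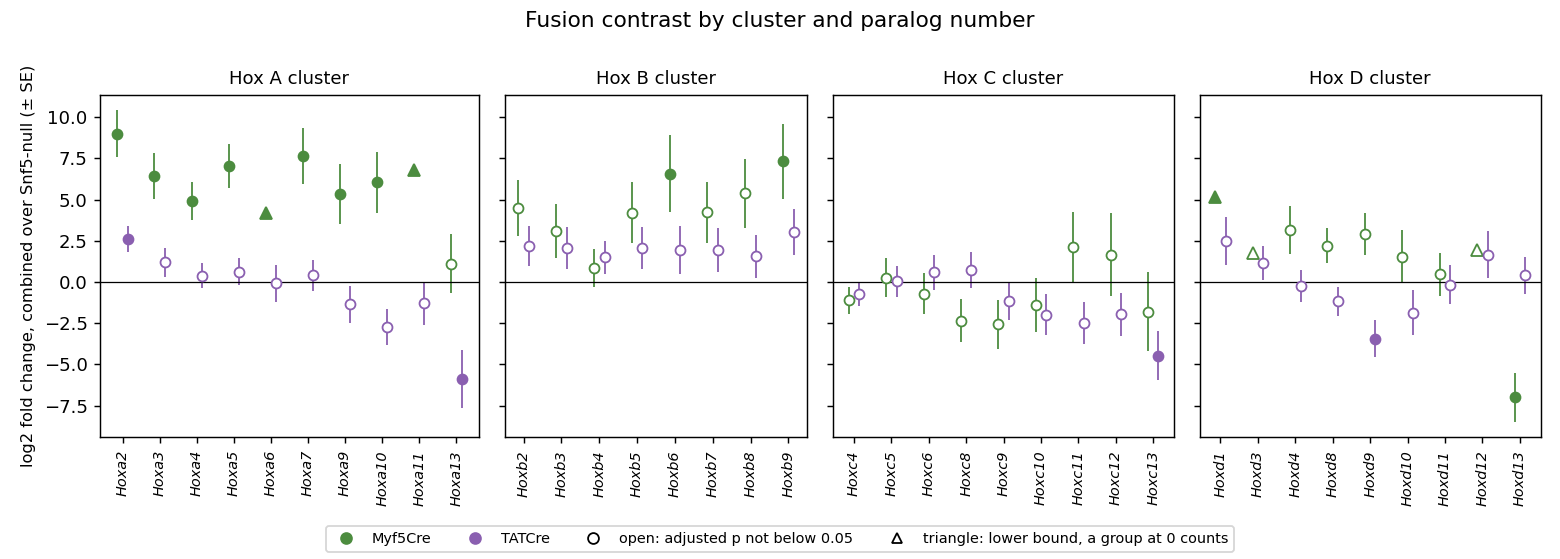
Log2 fold change of combined over Snf5-null tumours (± SE) for each of the 36 tested Hox genes, by cluster and paralog number, in Myf5Cre (green) and TATCre tumours (purple). Filled points passed the test, and triangles are lower bounds for genes with 0 counts in a group; in Myf5Cre tumours Hoxa2 to Hoxa11 were filled and above 0 and Hoxd13 lay at -7.01, while fitted values of genes with 1 to 3 counts in the Snf5-null group are imprecise.

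Within the TATCre tumours the same comparison called 1 Hox gene higher, Hoxa2, and 3 lower, Hoxa13, Hoxc13 and Hoxd9. Over all genes tested, 18.1% were higher and 13.9% lower, but the Hox count depended on Snf5-null N49: without it 7 were higher and 2 lower. The median log2 fold change of the 36 genes was 0.39, against 0.23 over all genes. By class, all 3 genes that fell were among the 15 tested posterior genes, where 13.9% of all genes were lower. A negative estimate was found for 12 of 15 posterior, 4 of 15 central and 0 of 6 anterior genes. The classes were not compared by a test, and neighbouring genes of a cluster are not separate events. Each of the 3 calls was also lost when certain single libraries were left out.

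Hoxa2 was at 1.49, 8.37, 0.724 and 9.01 RPKM in the combined TATCre libraries N49, 78774, 78777 and 78780, and at 0.917, 2.14, 0.279, 0.277 and 0.330 in the Snf5-null TATCre libraries N1, N49, N43L, N43R and N51. It rose by 2.63 (SE 0.79, adjusted p = 0.0185) on the log2 scale, with overlapping groups, and lost its call without 78774 or 78780 (adjusted p up to 0.0556) and in a fit of these groups alone (2.59, adjusted p = 0.071). Hoxd9, a posterior gene, was at 0.857, 0.462, 0.246 and 0.492 RPKM with the fusion and at 0.0816, 4.54, 7.60, 6.78 and 8.91 without it. It fell by 3.44 (SE 1.12, adjusted p = 0.0262), and only Snf5-null N1 was not above the combined libraries.

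Hoxc13, a gene of hair and nail follicles, was at 0.119, 0, 0.214 and 0.122 RPKM with the fusion and at 0.0236, 5.74, 3.04, 2.33 and 1.73 without it. It fell by 4.46 (SE 1.50, adjusted p = 0.0335), a call that stayed in 2 of 9 fits that left out a library and was lost with N43L and N43R summed (adjusted p = 0.0523). Hoxa13, which patterns the digits and the hindgut, was at 8.09 RPKM in Snf5-null N1, at 0.231, 0.0446, 0.221 and 0 in the other 4, and at most 0.0709 in the combined libraries. Its fall of 5.91 (SE 1.77, adjusted p = 0.0181) rested on N1, without which it was -2.07 (adjusted p = 0.19). Hoxd9 lost its call in 4 of 9 such fits, without Snf5-null N51 or combined 78774, 78777 or 78780 (adjusted p up to 0.0692). No Hox B gene was called with all libraries, although all 8 tested genes had positive estimates, of which Hoxb9 was 3.04 (SE 1.39, adjusted p = 0.0986). Without Snf5-null N49, the high Hox B library of its group, Hoxb2, Hoxb3, Hoxb5, Hoxb6 and Hoxb9 were called higher, by 3.70, 4.03, 4.43, 5.03 and 5.45 (adjusted p up to 0.0417), as was Hoxd1 by 5.62 (adjusted p = 0.0194).

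The difference between the 2 fusion contrasts was tested as the interaction of genotype and Cre. It called 4 Hox genes with a larger change in Myf5Cre tumours, Hoxa2, Hoxa5, Hoxa7 and Hoxa10, and 1 with a lower one, Hoxd13. Over all genes tested, 1.32% were higher and 1.1% lower. Hoxa2 differed by 6.35 (SE 1.53, adjusted p = 0.0356) and Hoxa5 by 6.42 (SE 1.50, adjusted p = 0.0305). Hoxa7 differed by 7.25 (SE 1.89, adjusted p = 0.0474) and Hoxa10 by 8.77 (SE 2.15, adjusted p = 0.037).

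These sizes rest on 1, 5, 1 and 1 counts in all in the Snf5-null Myf5Cre group. In the combined TATCre libraries N49, 78774, 78777 and 78780, Hoxa5 was at 0.702, 6.73, 0.249 and 2.24 RPKM, Hoxa7 at 0.484, 5.47, 0.102 and 0.313, and Hoxa10 at 0.0448, 5.03, 0.161 and 0.138. Only 78774 was high in all 3 genes. In the Snf5-null TATCre libraries N1, N49, N43L, N43R and N51, Hoxa5 was at 0.805, 2.83, 1.53, 1.22 and 1.61 RPKM and Hoxa7 at 1.03, 1.06, 1.72, 1.12 and 1.09. Hoxa10 was above all combined libraries but 78774 there (4.71 to 12.2), so the fusion contrast of Hoxa10 was positive in Myf5Cre and -2.72 in TATCre tumours, the latter not called (adjusted p = 0.0666).

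For Hoxd13 the interaction was -7.42 (SE 1.78, adjusted p = 0.0352). Its levels in the combined TATCre libraries N49, 78774, 78777 and 78780 were 0.147, 0.472, 0.424 and 0.0605 RPKM, and in the Snf5-null TATCre libraries N1, N49, N43L, N43R and N51 they were 0.351, 0.484, 0, 0.0220 and 0.197. The 2 TATCre groups overlapped. The interaction calls were near the threshold: with 1 of the 16 libraries left out in turn, Hoxa2, Hoxa5 and Hoxd13 kept theirs in 9 fits, Hoxa10 in 6 and Hoxa7 in 4, with adjusted p up to 0.126, 0.116, 0.0943, 0.131 and 0.139. With N43L and N43R summed, Hoxa7, Hoxa10 and Hoxd13 lost theirs (adjusted p = 0.0713, 0.0576 and 0.0534). The calls of all 5 genes were lost without Snf5-null Myf5Cre N31 or N33 or combined Myf5Cre N3 or N4. Without Snf5-null TATCre N49 the 4 Hox A genes also lost theirs, while Hoxd13 kept its call.

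**Figure D4:**
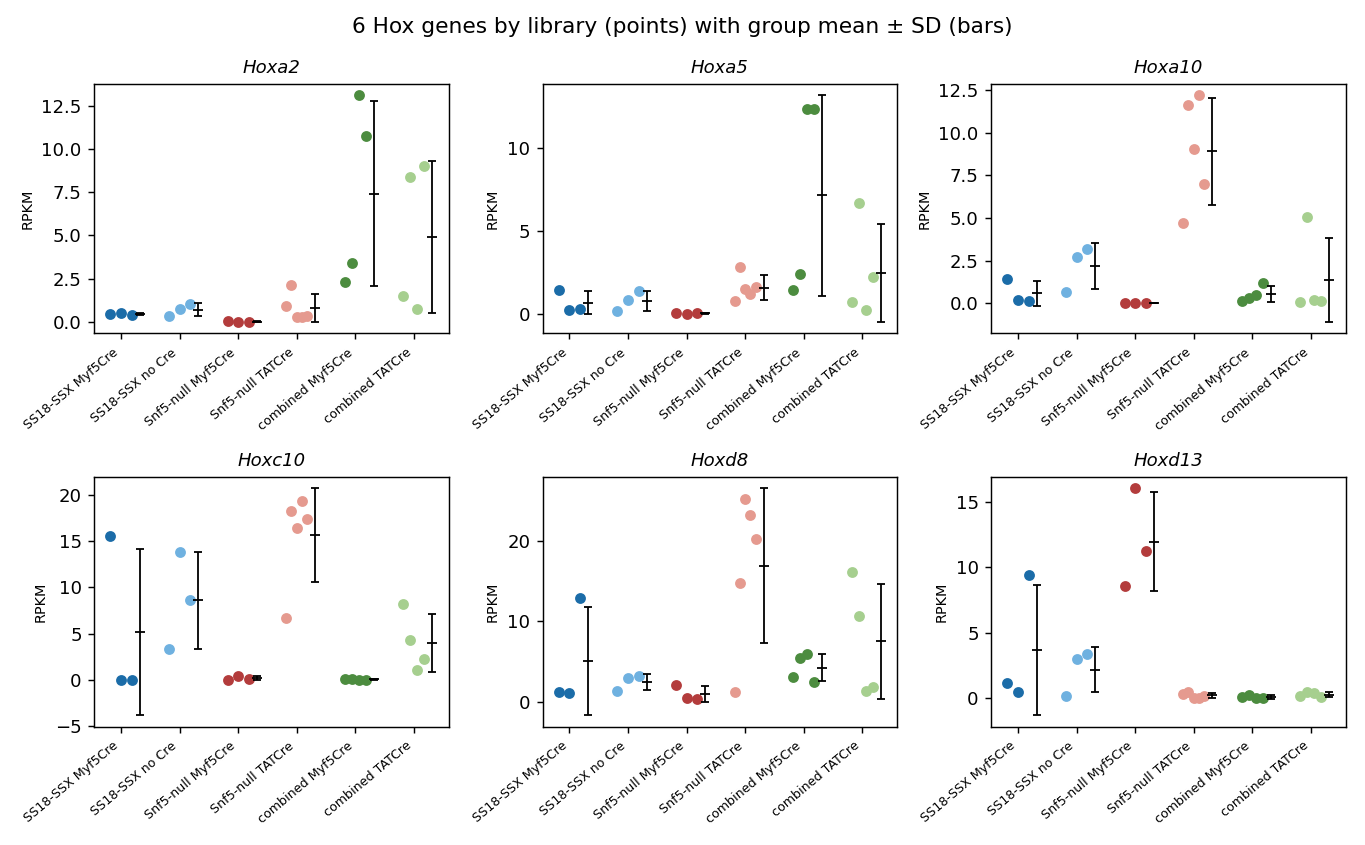
RPKM of Hoxa2, Hoxa5, Hoxa10, Hoxc10, Hoxd8 and Hoxd13 in each library (points) with the group mean ± SD (bars beside the points) in the 6 groups, on linear axes. Hoxd13 was at 8.55 to 16.1 RPKM in the Snf5-null Myf5Cre libraries, and the only other library above 3.36 was SS18-SSX N460 at 9.45.

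The Snf5-null tumours of the 2 recombinases were compared directly. This comparison shares its Snf5-null Myf5Cre libraries with the first one, so the values stand side by side and are not independent. Of the 36 genes, 1 was higher in the Myf5Cre tumours, Hoxd13, and 12 were lower: 8 of Hox A, Hoxc11, Hoxc13, Hoxd8 and Hoxd9. Over all genes tested, 1.78% were higher and 3.19% lower. The median log2 difference of the Hox genes was -4.94, or -4.24 with genes at 0 counts set to their bound, against -0.05 over all genes. Macrophage markers were not called between these groups (0 of 10 in either direction). Of 10 fibroblast and matrix markers, Pdgfra alone was called (log2 difference -5.31, SE 0.58, adjusted p = 0.000105), lower in the Myf5Cre tumours. None of 10 skeletal muscle markers was called, but their median sum was 271 CPM in the Myf5Cre and 4178 in the TATCre tumours. The ranges overlapped (111 to 5087 against 1312 to 16758). The part of these cells in the Hox differences was not tested.

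Hoxd13 was higher by 5.82 (SE 1.27, adjusted p = 0.0139) in the Myf5Cre tumours, without overlap. Hoxa11 was at 4.32, 5.23, 1.85, 7.02 and 0.192 RPKM in the TATCre libraries N1, N49, N43L, N43R and N51, and so was at least 147-fold lower in the Myf5Cre tumours, where it had no count (adjusted p = 0.0349). Hoxa10 had 2604 counts in the TATCre tumours against 1, a pooled ratio of 1557 (279 to 61528, adjusted p = 0.00862). Hoxc11, a posterior gene, was at 5.64, 3.41, 2.34, 4.59 and 2.15 RPKM in the TATCre libraries and at 0, 0.0246 and 0 in the Myf5Cre libraries, a pooled ratio of 389 (69.5 to 15376, adjusted p = 0.0316). Hoxd8 was at 1.19, 14.8, 25.2, 23.2 and 20.2 RPKM against 2.06, 0.399 and 0.296, lower by 4.20 (SE 1.16, adjusted p = 0.044) with TATCre N1 in the range of the Myf5Cre libraries.

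No Hox gene was called lower in this comparison without Snf5-null Myf5Cre N31 or without N33, and Hoxd13 also lost its call then (adjusted p up to 0.0659). With N43L and N43R, whose tags share a number, summed to 1 library, 7 genes were called lower, and without TATCre N1 there were 16.

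Between the combined tumours of the 2 recombinases no Hox gene was called by edgeR in either direction, against 0.571% of all genes higher and 1.25% lower in the Myf5Cre tumours. At an unadjusted p below 0.05, 0 were higher and 9 lower, and DESeq2 called 0 higher and 6 lower. Those 9 were the whole Hox C cluster. Hoxc9, a posterior gene, was at 0.0660, 0.248, 0.0319 and 0 RPKM in the Myf5Cre libraries N1, N2, N3 and N4, and at 6.96, 6.72, 0.697 and 3.40 in the TATCre libraries N49, 78774, 78777 and 78780. The groups did not overlap, and its log2 difference was -5.62 (SE 1.54, adjusted p = 0.0654).

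The combined Myf5Cre tumours were also compared with the SS18-SSX Myf5 tumours, whose genotype label lists no change in Snf5. Hoxa2 and Hoxa5 were higher, and 12 genes were lower: all 9 of Hox C, and Hoxd3, Hoxd12 and Hoxd13. Over all genes tested, 15.5% were higher and 16.9% lower. Hoxa2 was at 0.447, 0.490 and 0.393 RPKM in the SS18-SSX libraries N381, N428 and N460, below all 4 combined libraries, and was higher by 4.05 (SE 1.03, adjusted p = 0.00772) in the combined tumours. This call stayed in all 7 fits that left out a library. Hoxa5 was higher by 3.41 (SE 1.08, adjusted p = 0.0228) with overlapping groups, and lost its call without SS18-SSX N428 or N460 or combined N3 or N4 (adjusted p up to 0.0724).

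The Hox C calls rested on SS18-SSX N381. Hoxc13 was at 1.61, 0 and 0.0149 RPKM in the SS18-SSX libraries N381, N428 and N460 and had no count in the combined Myf5Cre libraries, at least 24.8-fold lower (adjusted p = 0.019). Hoxc11 was at 14.6, 0.0430 and 0 RPKM in the same SS18-SSX libraries and at 0.132, 0.0596, 0 and 0 in the combined ones. Without N381 none of the 9 Hox C genes was called: the log2 differences of Hoxc4, Hoxc5, Hoxc12 and Hoxc13 became -1.47, -2.02, -0.29 and -1.85. Those of Hoxc6, Hoxc8, Hoxc9, Hoxc10 and Hoxc11 turned to 1.29, 0.82, 1.30, 4.40 and 1.17.

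The Hox D calls were lost without SS18-SSX N460, but their differences kept their sign. Hoxd13 was at 1.16, 0.455 and 9.45 RPKM in N381, N428 and N460, and was lower by 5.31 (SE 1.40, adjusted p = 0.009) in the combined tumours, without overlap. Without N460 the differences of Hoxd13, Hoxd12 and Hoxd3 were -3.06, -1.15 and -1.07, none called (adjusted p up to 0.0795, 0.515 and 0.511). Hoxd12 was also not called without N381 or combined N2, N3 or N4, nor Hoxd3 without combined N1, N3 or N4. Hoxd3 shares 62.3% of its exon length with Hoxd4 and Gm28230 on the same strand, so its counts are uncertain.

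**Figure D5:**
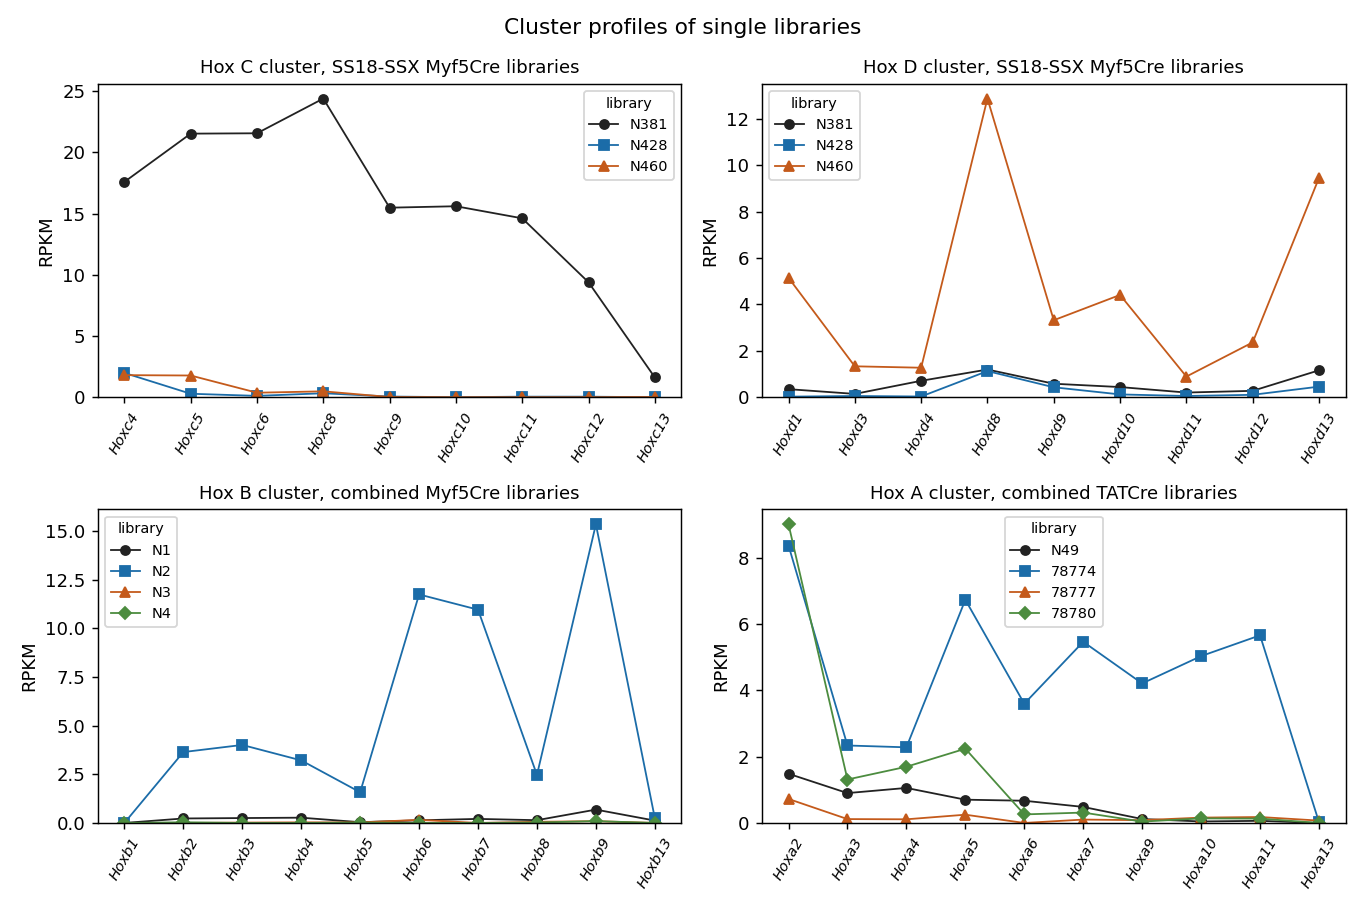
RPKM of each member along Hox C and Hox D in the SS18-SSX Myf5 libraries, Hox B in the combined Myf5Cre libraries and Hox A in the combined TATCre libraries, 1 line a library. SS18-SSX N381 was high across Hox C (24.4 RPKM at Hoxc8), N460 across Hox D (12.9 at Hoxd8), combined Myf5Cre N2 across Hox B (15.3 at Hoxb9), and combined TATCre 78774 was the only library of its group above 0.179 RPKM from Hoxa9 to Hoxa11.

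Against the same SS18-SSX tumours, the Snf5-null Myf5Cre tumours had 15 Hox genes lower and 0 higher, where 19.6% of all genes were lower and 14.4% higher. The 0 is by edgeR with all libraries, and DESeq2 and an unadjusted p below 0.05 also gave 0 higher. Without SS18-SSX N381, 2 genes were called higher, Hoxc10 (adjusted p = 0.0186), which had no count in N428 and N460, and Hoxc9 (3.99, SE 1.34, adjusted p = 0.0331). The median log2 difference of the 36 genes was -4.70, or -3.85 with genes at 0 counts set to their bound, against -0.16 over all genes. All 10 macrophage markers were higher in the Snf5-null tumours here. Hox A gave 6 of the 15, Hox C 5 and Hox D 4. Hoxa10 was at 1.40, 0.186 and 0.112 RPKM in N381, N428 and N460, a pooled ratio of 88.7 over the Snf5-null group (15.6 to 3532, adjusted p = 0.0176). Hoxd1 was at 0.346, 0.0234 and 5.15 RPKM there and at 0 counts in the Snf5-null group, at least 70.1-fold lower (adjusted p = 0.0194). Hoxd12 was at 0.274, 0.103 and 2.36 RPKM against 0 counts, at least 46.6-fold lower (adjusted p = 0.0071), and kept its call in all 6 fits that left out a library, as did Hoxd3. Hoxc12 was at 9.38, 0.0422 and 0 RPKM against 0 counts, at least 49.9-fold lower (adjusted p = 0.0134), and was not called without N381 (adjusted p = 0.479). With all libraries Hoxd13 had the single positive estimate, 1.70 (SE 1.30, adjusted p = 0.319). Without N381 the count of lower genes was 5, and Hoxc5 was no longer called (-2.16, adjusted p = 0.151). Hoxc11, Hoxc12 and Hoxc13, with at most 2 counts each in N428 and in N460, were not called either (adjusted p = 0.722, 0.479 and 0.997).

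Between the SS18-SSX tumours with Myf5 in the title and those with no Cre stated, edgeR called no Hox gene in either direction, where 1.25% of all genes were higher and 0.866% lower. At an unadjusted p below 0.05 the counts were also 0 and 0, and DESeq2 called none. Without SS18-SSX N381, 4 genes were called lower in the Myf5 tumours: Hoxc9, Hoxc10, Hoxc11 and Hoxc12 (adjusted p = 0.0221, 0.00444, 0.0122 and 0.019). The libraries with Myf5 in the title carry number series 11264 and those with no Cre stated carry 11361. Number series and Cre label therefore cannot be told apart in this comparison. Within the group with no Cre stated, B and N2 had 25 members each at 1 RPKM or more and A had 8. The Hoxc12 level, for example, was 3.18, 19.4 and 10.9 RPKM in A, B and N2, and the SS18-SSX groups overlapped.

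The Hox proteins bind DNA with partners of the TALE homeodomain family (Pbx, Meis and Pknox). Of 9 such genes, all tested, the fusion contrast in Myf5Cre tumours called 1 higher and 2 lower (over all genes, 15.7% higher and 15.3% lower). Meis2 was at 12.6, 6.56, 4.94 and 5.89 RPKM in the combined Myf5Cre libraries N1, N2, N3 and N4, and at 0.113, 0.0331 and 0.0571 in the Snf5-null Myf5Cre libraries N30, N31 and N33. It rose by 6.79 (SE 1.23, adjusted p = 0.000481), without overlap. In the combined TATCre libraries N49, 78774, 78777 and 78780 it was at 0.0426, 0.0410, 0.825 and 0.0998, and its interaction was 8.66 (SE 1.47, adjusted p = 0.00714), which stayed called in all 16 fits that left out a library. The Myf5Cre tumours also had less Pknox2 and Meis3 with the fusion (-4.47 and -2.79, adjusted p = 0.0011 and 0.00783). In the TATCre tumours Pbx3 rose by 1.84 (SE 0.40, adjusted p = 0.00272).

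Of 19 genes known to set or hold Hox expression, 17 were tested. In the Myf5Cre fusion contrast 1 was higher (Rara, a retinoic acid receptor), and the lower genes included Kmt2a, Kat6a, Rarg and Egr2. In TATCre tumours 4 were higher (Suz12, Gdf11, Ctcf and Rara), and Egr2 was among the lower genes (over all genes, 18.1% and 13.9%). The call of Gdf11 was lost under 4 of 5 other settings and in 5 of 9 fits that left out a library (adjusted p up to 0.224). Egr2 sets the hindbrain Hox pattern and is also expressed in macrophages, and it fell with the macrophage markers, by 4.66 in Myf5Cre and by 1.73 in TATCre tumours (adjusted p = 2.43e-05 and 0.0151). Its relation to those cells was not tested. Cdx2, which switches on central Hox genes in the embryo, was at 2.57, 11.5 and 1.74 RPKM in SS18-SSX N381, N428 and N460 and at 0, 0.0220 and 0.0553 in Snf5-null Myf5Cre N30, N31 and N33. It was lower in the latter (822 counts against 3, adjusted p = 0.0202), a call lost without SS18-SSX N428 or any Snf5-null library (adjusted p up to 0.075).

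The genes beside and between the Hox genes were also counted. Of 15 neighbours, 12 were tested, and the Myf5Cre fusion contrast called 0 higher and 2 lower, Evx2 and Skap1 (over all genes, 15.7% and 15.3%), while the TATCre contrast called Evx1 higher and Skap1 and Snx11 lower (18.1% and 13.9%). The TATCre call of Skap1 stayed in 1 of 9 fits that left out a library (adjusted p up to 0.0991). Evx1, beside Hoxa13, had no count in any of the 8 Snf5-null libraries and was at 0, 0.0214, 0.812 and 0.0522 RPKM in the combined TATCre libraries N49, 78774, 78777 and 78780, and was not called without 78777 (adjusted p = 0.111). The annotation placed 41 other rows of the table inside the clusters, of which 18 reached 10 counts in a library and 12 were tested. In the Myf5Cre fusion contrast 8 of the 12 were higher and none lower (over all genes, 15.7% and 15.3%), 5 of them in Hox A (Hoxaas2, Hoxaas3, Gm15050, 5730596B20Rik and Hoxa11os). Some of these rows overlap Hox exons on the other strand: Hoxaas2, Hoxaas3 and 5730596B20Rik with Hoxa3, Hoxaas3 with Hoxa7, and Hoxa11os with Hoxa11. Hoxb3os, also higher, covers part of the 52.9% of Hoxb3 exon length that is shared. Their reads may be mixed, so these calls are not separate from those of the Hox genes. Haglr, antisense to the Hox D genes, had no count in the Snf5-null Myf5Cre group and was at 0.442, 0.618, 0.180 and 0.0201 RPKM in the combined Myf5Cre libraries, at least 17.7-fold higher (adjusted p = 0.0176, and up to 0.0653 without Snf5-null N30, N31 or N33). Hotair, the noncoding RNA of Hox C, was at 3.46, 0 and 0 RPKM in SS18-SSX N381, N428 and N460. N381 was also the high library of that group in the Hox C genes around it. Gm53, a noncoding row between Hoxb13 and Hoxb9, was at 33.9, 23.9, 1.42 and 58.5 RPKM in the combined TATCre libraries N49, 78774, 78777 and 78780 and at most 6.24 in the other groups, and rose by 3.93 (SE 1.44, adjusted p = 0.0438) over Snf5-null TATCre. That call was lost without combined 78774 or 78780 or Snf5-null N43L, N43R or N51, and under 4 of 5 other settings, among them RLE scaling (adjusted p = 0.0511; up to 0.102 over all).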

How the data were processed

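Total RNA of 22 fresh frozen mouse tumours was extracted and made into stranded mRNA libraries, per the labels' protocols. The authors deposited whole-number counts per Ensembl gene, 48440 rows in each library. Per the submitters' processing notes, STAR 2.7.5a, cutadapt, RSEM, featureCounts and DESeq2 were used with mm10; what each did is not stated. Use of strand in the counting is not given in the labels or file headers. Groups were taken from the sample titles.

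Counts were tested with edgeR 4.0.16 in R 4.3.3: filterByExpr over the 6 groups (minimum count 10, minimum total 15), which kept 18929 genes with 99.91% of the counts, TMM scaling, 1 quasi-likelihood model of all groups, and Benjamini-Hochberg adjustment over all genes at 0.05. RPKM used union exon lengths from GENCODE, with TMM-scaled totals. A group with no counts gives a lower bound from a floor of 3 counts over the group, and a group with 1 to 3 counts gives a pooled ratio with a 95% interval. Intervals and floors cover counting error only. The scripts were tested on simulated data. Alternatives were relative log expression (RLE) scaling, no filter, DESeq2 1.42.0, fits of the compared groups only, N43L and N43R summed, and each library left out.

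The Hox genes and the other gene lists were chosen with earlier results of these data known. Of 39 rows that the symbol rule finds, 1 is not reported here. Values for every library were given for the most expressed gene of each cluster, for the called gene with the largest log2 change in each cluster and comparison, and for genes called in the interaction. Genes outside the clusters were named from fixed lists where called, with a few further values chosen after they were seen.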

Additional observations from a re-analysis of the deposited data

Results flagged for a closer look

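In 98 sets of a Hox gene and a group of 4 or 5 libraries, a single library was checked for lying far from the rest of its group. The rule flags about 5% of sets by chance if values follow a normal distribution, and its rate for RPKM values was not estimated. Values are RPKM. Snf5-null TATCre N49 lay above its group in Hoxb2 (1.34), Hoxb3 (3.05), Hoxb5 (1.07), Hoxb6 (4.77), Hoxb7 (4.10), Hoxb8 (1.78), Hoxb9 (4.92) and Hoxd1 (0.714). Combined Myf5Cre N2 lay above its group in Hoxb2 (3.64), Hoxb3 (4.01), Hoxb4 (3.21), Hoxb5 (1.58), Hoxb6 (11.7), Hoxb7 (10.95), Hoxb8 (2.47) and Hoxb9 (15.3). Neighbouring Hox B genes of 1 library are not separate events.

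Combined TATCre 78774 was far above the other 3 libraries in Hoxa7 (5.47, next 0.484), Hoxa9 (4.21, next 0.118), Hoxa10 (5.03, next 0.161) and Hoxa11 (5.66, next 0.179). Combined Myf5Cre N4 was high in Hoxa9 (0.706) and Snf5-null TATCre N43L in Hoxa7 (1.72, next 1.12). Snf5-null TATCre N1 was high in Hoxa13 (8.09) and Hoxb13 (0.580) and low in Hoxc10 (6.73, next 16.4). Combined TATCre 78780 was high in Hoxb13 (6.40) and 78777 low in Hoxc4 (1.02, next 2.98). Snf5-null TATCre N51 was high in Hoxd10 (5.32) and Hoxd11 (0.197).

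The log2 change with the fusion differed between Myf5Cre and TATCre tumours by a test of the interaction (edgeR, adjusted p below the threshold) for Hoxa2 (6.35), Hoxa5 (6.42), Hoxa7 (7.25), Hoxa10 (8.77) and Hoxd13 (-7.42).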

How the results depend on the processing

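Of 753 recomputed values of called Hox genes, 538 kept their call, 208 lost it and 7 changed sign. RLE scaling kept 64 of 64 calls, no filter 62 of 64, DESeq2 63 of 64, fits of the compared groups only 32 of 40, and N43L and N43R summed 13 of 22. Fits that left out a library kept 304 of 499. Where a count of called genes moved by over 1.5 times, the cause was not tested. DESeq2 gave 11 higher in the interaction (main 4), 23 lower between Snf5-null groups (main 12), 6 lower between combined groups (main 0), 4 higher in combined against SS18-SSX (main 2) and 27 lower in Snf5-null against SS18-SSX (main 15). Fits of the compared groups only apply the filter to fewer libraries, so genes drop out untested: 4 of 13 called Hox genes for the fusion in Myf5Cre, 1 of 4 in TATCre, 7 of 14 in combined against SS18-SSX and 12 of 15 in Snf5-null against SS18-SSX. They gave 0 higher for the fusion in TATCre, 2 higher in the interaction, 3 lower in combined against SS18-SSX and 5 lower in Snf5-null against SS18-SSX. With N43L and N43R summed, the interaction gave 2 higher and 0 lower, and Snf5-null Myf5Cre against TATCre 7 lower.

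With 1 library left out, the fusion in Myf5Cre gave 6 to 13 higher and 1 to 1 lower, with the lowest count without Snf5-null N31. The fusion in TATCre gave 0 to 7 higher and 1 to 4 lower, with 0 without combined 78774 or 78780 and 7 without Snf5-null N49. The interaction gave 0 to 7 higher and 0 to 1 lower. Snf5-null Myf5Cre against TATCre gave 0 to 1 higher and 0 to 16 lower, and combined Myf5Cre against TATCre 0 to 0 higher and 0 to 1 lower. Combined against SS18-SSX gave 1 to 3 higher and 2 to 12 lower, Snf5-null against SS18-SSX 0 to 2 higher and 5 to 16 lower, and the SS18-SSX groups 0 to 0 higher and 0 to 4 lower. The lowest counts against SS18-SSX, and the 4, came without SS18-SSX N381. Over the same fits, the log2 difference of combined against SS18-SSX ran from -8.33 to 1.61 (Hotair), -7.55 to 1.17 (Hoxc11), -6.46 to 4.40 (Hoxc10), -7.15 to 1.30 (Hoxc9), -4.79 to 0.82 (Hoxc8) and -5.04 to 1.29 (Hoxc6). That of Snf5-null against SS18-SSX ran from -7.40 to 0.022 (Hoxc13) and -5.74 to 5.93 (Hoxc10, adjusted p = 0.0186 at the latter). Each positive end came without SS18-SSX N381. No paired analysis was possible because the groups compared share at most 1 replicate tag. Depth limits genes with few counts, such as Hox A in Snf5-null Myf5Cre tumours.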

Other observations

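Genes that mark body position outside the Hox clusters also differed between these tumours. Of 31 such genes, 12 were higher and 0 lower with the fusion in Myf5Cre tumours, and 9 higher and 1 lower in TATCre tumours. Over all genes, 15.7% were higher and 15.3% lower in the former, and 18.1% and 13.9% in the latter.

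Single combined TATCre libraries carried different position genes, given here as values chosen after they were seen. Tbx4, a hindlimb gene, was at 21.2 RPKM in 78780, where Pitx1 and Isl1, also genes of the hindlimb field, were at 0.679 and 0.171. Pitx1 and Isl1 were at 44.1 and 23.1 in 78777, where Tbx4 was at 0.0515. Other groups also had high Pitx1, with 59.5 in SS18-SSX A and 45.4 in combined Myf5Cre N3. Tbx5, a forelimb gene, was at 8.97 in N49, with Hand2 at 30.4, and Tbx5 was at 7.95 in SS18-SSX A. Meox1, a gene of the somites, was at 2.97, 84.0, 118, 123 and 123 RPKM in Snf5-null TATCre N1, N49, N43L, N43R and N51 and at 1.55, 1.30 and 1.54 in Snf5-null Myf5Cre N30, N31 and N33. It was lower in the Myf5Cre tumours by -5.94 on the log2 scale (SE 1.43, adjusted p = 0.0224 by edgeR), and N1 was the lone low TATCre library.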
